A study of Rattus norvegicus with 12 samples.

Results

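Mmp9 (gelatinase B) and Mmp13 (collagenase 3) were followed through the fracture hematoma of old and young rats by their 3 probe sets, out of 31099 on the array. They are 2 of the 14217 genes that the array measured with a probe set of 1 symbol. The probe sets were taken by the platform annotation, which assigned 2 of them to Mmp9 alone (1398275_at, the brighter, and 1369166_at, the dimmer) and 1 to Mmp13 alone (1388204_at). Both genes were chosen by their signals, which were known to differ between the groups, so that their group levels are given here as a description only. The question addressed was which cell type genes the 2 enzymes follow from array to array.

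The hematoma was taken on day 3 from the gap of 1.5 mm of a midshaft osteotomy of the left femur in female Sprague–Dawley rats carrying an external fixator. The groups were old rats with rigid fixation (OR), old rats with semi-rigid fixation (OSR), young rats with rigid fixation (YR) and young rats with semi-rigid fixation (YSR). Old animals were 52 weeks and young animals 12 weeks of age, and bone and fixator lay 7.5 mm apart in the rigid and 15 mm apart in the semi-rigid configuration. RNA of 3 animals was pooled for each array and 3 arrays were hybridized per group, so that 12 arrays stand for 9 animals per group and all values below are averages over pools. All groups had an osteotomy, and no unoperated tissue was measured. All 7 measured genes of an erythroid list (beta-globin Hbb, Alas2, Slc4a1, Ahsp and others) lay at or above the median signal of all probe sets, as did 8 of 11 genes of neutrophils, 5 of 10 of T and NK cells, 2 of 5 of B and plasma cells and 0 of 7 of mast cells.

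MMP-9 cleaves gelatin, the denatured form of collagen, and is a product of osteoclasts, the bone-resorbing cells, and of neutrophils, which store it in granules. MMP-13 cleaves intact fibrillar collagen and is known in bone from osteoblasts and hypertrophic chondrocytes. In fracture healing both enzymes take part in the removal of cartilage and matrix and in the ingrowth of vessels. Markers were used for the candidate sources. Acp5 (tartrate-resistant acid phosphatase) and Ctsk (cathepsin K) stood for osteoclasts, S100a8 (a calcium-binding protein of the neutrophil cytosol) for neutrophils, Col1a1 (the alpha 1 chain of type I collagen) for fibroblasts and osteoblasts, and Ibsp (bone sialoprotein) for osteoblasts. Each gene was represented by its brightest probe set with 1 symbol. In whole tissue, fewer cells of a type and less RNA per cell cannot be told apart.

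The sequence before the transcription start of Mmp13 is shown with that of Ibsp, the marker of highest within-group r with Mmp13 and with the brighter Mmp9 probe set (0.77, against 0.75 for S100a8). At the dimmer Mmp9 probe set S100a8 was higher (0.70, against 0.56 for Ibsp), and neither passed the exact permutation test described below. Each run holds the 250 bases before the RefSeq start in the rat assembly GRCr8, chr8:12782579-12782828 on the plus strand for Mmp13 and chr14:5757243-5757492 on the minus strand for Ibsp, read in the direction of transcription. Capitals mark 3 motifs, each searched on both strands. They are the AP-1 motif with the letters TGANTCA, the motif of Runx factors, TGTGGT on the strand shown or ACCACA where it lies on the opposite strand, and the TATA box, TATAAA on the strand shown or TTTATA where it lies on the opposite strand.
Mmp13: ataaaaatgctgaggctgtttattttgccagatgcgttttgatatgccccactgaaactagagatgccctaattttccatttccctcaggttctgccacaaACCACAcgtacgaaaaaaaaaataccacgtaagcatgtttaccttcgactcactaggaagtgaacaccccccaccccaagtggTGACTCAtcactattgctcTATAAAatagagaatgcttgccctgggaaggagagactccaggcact
Ibsp: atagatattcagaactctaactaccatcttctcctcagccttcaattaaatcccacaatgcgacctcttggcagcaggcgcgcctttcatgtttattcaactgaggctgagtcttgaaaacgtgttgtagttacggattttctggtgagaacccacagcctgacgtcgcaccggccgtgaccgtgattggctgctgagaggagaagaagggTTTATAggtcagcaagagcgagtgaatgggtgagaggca
Counted back from the start, the Mmp13 run held ACCACA from position -149 to -144, TGACTCA from -66 to -60 and TATAAA from -47 to -42, which do not overlap. The Ibsp run held only TTTATA, from -39 to -34. Of 33469 rat promoters of the same length, 6.34% held the AP-1 letters, 14.5% the Runx letters and 12.9% the TATA letters, so that a match describes the letters alone. The entries for Acp5 and Ctsk held none of them in this window. Mmp9, S100a8 and Col1a1 were not included.

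Mmp9 signal was highest in old rats with rigid fixation. At the brighter probe set it was 6075.2, 5402.0 and 4552.9 in the OR arrays, 2793.7, 1300.2 and 847.5 in the OSR arrays, 314.8, 1121.7 and 300.8 in the YR arrays and 621.1, 419.0 and 1138.2 in the YSR arrays (arrays 1 to 3 of each group). Every OR array lay above every other array, whereas the OSR, YR and YSR arrays overlapped. The means of log2 signal were 12.37 ± 0.21 in OR, 10.51 ± 0.87 in OSR, 8.89 ± 1.08 in YR and 9.38 ± 0.73 in YSR (SD, n = 3 each). The order was OR, OSR, YSR and YR, and neighbours among the last 3 overlapped.
The dimmer Mmp9 probe set kept this order. It had 2010.7, 2026.1 and 2027.3 in OR, 1369.7, 414.7 and 270.8 in OSR, 169.3, 432.3 and 156.7 in YR and 196.0, 274.5 and 357.1 in YSR. The OR arrays were almost alike at this probe set (log2 signal 10.98 ± 0.01) and again above all others.
Mmp13 had 7111.9, 7555.3 and 3699.8 in OR, 4323.6, 1636.3 and 1410.6 in OSR, 415.0, 1725.9 and 886.2 in YR and 985.3, 243.1 and 1438.0 in YSR. OR array 3 lay below OSR array 1, so that these groups overlapped. On the log2 scale the means were 12.51 ± 0.57 in OR, 11.07 ± 0.88 in OSR, 9.75 ± 1.03 in YR and 9.45 ± 1.35 in YSR (SD, n = 3 each), and YR and YSR could not be separated. Over all 31042 probe sets tested, limma at an adjusted p under 0.05 called 0.00322% in OR against YR and 0% in OR against OSR, with 2589 and 1634 probe sets at an unadjusted p under 0.05.
Within each group other than OR, the same array was highest for both enzymes, namely OSR array 1, YR array 2 and YSR array 3. The spread among the 3 arrays of a group was therefore examined further, since it does not contain the known differences between group levels. Its size did enter the study's analysis of variance, in which both genes were found.

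**Figure D1:**
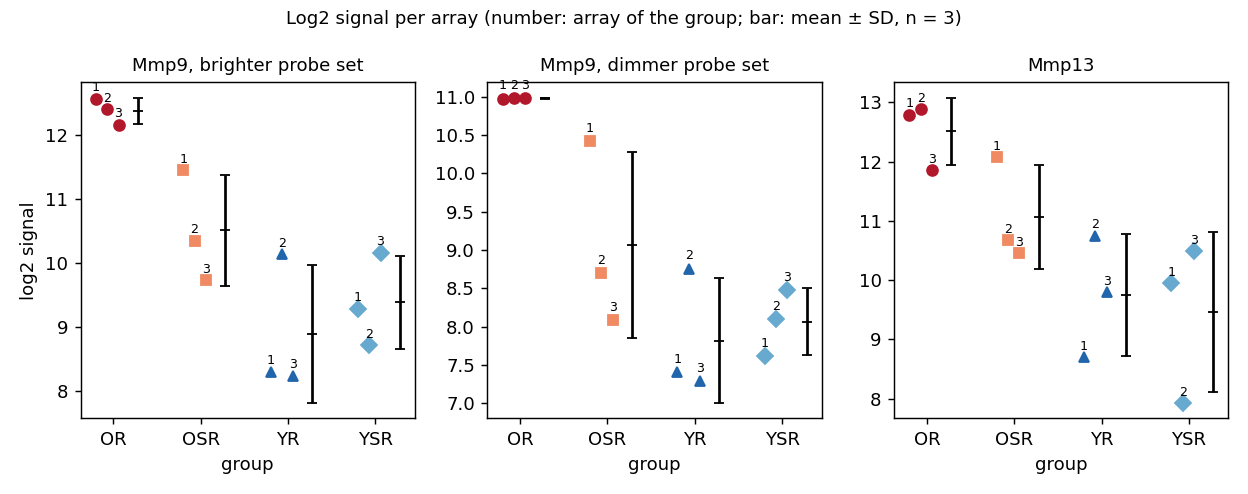
Log2 signal of both Mmp9 probe sets and of Mmp13 in each of the 12 arrays by group, with the array number above each point and the mean ± SD (n = 3) beside the points. All OR arrays lie above the others for Mmp9, and OSR array 1, YR array 2 and YSR array 3 are the highest of their groups for the brighter probe set and for Mmp13; the vertical axes differ between panels.

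RNA integrity differed between arrays. The Gapdh control probe sets, read at both ends of the transcript, gave a log2 ratio of 3' over 5' signal that is higher in degraded RNA. This ratio was 2.95 in OR array 1 and 6.69 in YSR array 1, 1.02 to 1.59 in the YR arrays and 0.33 to 0.49 in the other 7. Results below were therefore also computed without OR array 1 and YSR array 1 and with this ratio as a covariate.

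Among the markers, Acp5 followed the group levels of Mmp9. Its signal was 5313.9, 2370.7 and 3256.5 in OR, 2430.5, 2132.7 and 1901.9 in OSR, 1142.1, 1232.2 and 1295.5 in YR and 1506.7, 2103.8 and 1633.3 in YSR. The OR and YR arrays did not overlap, and YR was the lowest group as for Mmp9. The log2 difference OR minus YR was 1.50 (standard error 0.24) and did not pass (limma, Benjamini-Hochberg adjusted p = 0.146). Ctsk was 15485.8, 7695.0 and 6721.0 in OR, 6207.4, 6702.3 and 8352.5 in OSR, 4999.6, 5029.5 and 5122.9 in YR and 5549.7, 10008.9 and 6225.7 in YSR. Its highest arrays were OR array 1 and YSR array 2, the second of which was the lowest array of all for Mmp13.
S100a8 was 11918.4, 15362.7 and 33268.9 in OR, 25714.1, 7704.9 and 12739.4 in OSR, 3759.4, 17359.4 and 3297.8 in YR and 4281.4, 2706.3 and 5733.3 in YSR. OSR array 1, YR array 2 and YSR array 3 were again the highest of their groups, whereas in OR it was array 3, the lowest of that group for Mmp13 and for the brighter Mmp9 probe set. At the dimmer one the OR arrays were almost equal, array 3 being marginally the highest. Col1a1 varied little, with 23484.1, 20967.3 and 27431.0 in OR, 24634.3, 30854.5 and 17288.6 in OSR, 17102.4, 16409.2 and 20872.2 in YR and 23211.1, 25945.1 and 24191.5 in YSR. Ibsp varied most, with 6857.9, 541.5 and 1306.4 in OR, 3320.8, 334.7 and 183.2 in OSR, 1135.6, 3266.4 and 944.2 in YR and 124.9, 7.6 and 915.1 in YSR. Its groups overlapped except for YR and YSR, and OSR array 1, YR array 2 and YSR array 3 were once more the highest of their groups. The mean log2 signal of Ibsp was 10.73 ± 1.86 in OR, 9.20 ± 2.21 in OSR, 10.57 ± 0.97 in YR and 6.58 ± 3.47 in YSR (SD, n = 3 each).

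Over all 12 arrays, the brighter Mmp9 probe set correlated with Acp5 at r = 0.81 (Spearman rho 0.83) and with S100a8 at r = 0.81 (rho 0.73). Only 0.876% and 0.812% of all probe sets had an r with Mmp9 at least as high. The values for Ctsk (r = 0.49, rho 0.52), Ibsp (0.49, rho 0.45) and Col1a1 (0.32, rho 0.41) were lower. Mmp13 correlated with S100a8 at r = 0.81 (rho 0.82), with Acp5 at 0.66 (rho 0.69), with Ibsp at 0.66 (rho 0.57), with Ctsk at 0.32 (rho 0.31) and with Col1a1 at 0.15 (rho 0.17). Without the 2 arrays farthest from the median of the marker, the r with Acp5 was 0.71 for Mmp9 and 0.45 for Mmp13, and with S100a8 it was 0.75 for Mmp9 and 0.76 for Mmp13. These values contain the known differences between the groups and are given as a description without a test.

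Within groups the ranking of the markers changed. Here the deviation of each array from the mean of its group was correlated, and significance was assessed with a two-sided exact permutation test that exchanged marker values only within groups (10 relations between enzyme and marker). Mmp9 followed Ibsp (r = 0.77, exact permutation p = 0.00231, rho = 0.80 with p = 0.00694), and 10 of 12 arrays lay on the same side of their group means for both genes. A slope of 2.25 (standard error 0.55) meant that Ibsp deviated further than Mmp9 on the log2 scale. This slope did not pass when adjusted over all probe sets (limma, Benjamini-Hochberg adjusted p = 0.327). Without YSR arrays 2 and 3, the arrays with the largest Ibsp deviations, r was 0.73. Where such 2 arrays were left out, here and below, deviations were still taken from the means of all 3 arrays of a group. The removed arrays therefore kept a part in these values. The relation stood at 0.80 without the 2 arrays of highest Gapdh ratio, with group means computed anew, and at 0.78 with that ratio as a covariate. At the dimmer Mmp9 probe set it was weaker and did not pass (r = 0.56, exact permutation p = 0.0563).
Mmp13 also followed Ibsp (r = 0.80, exact permutation p = 0.0193, rho = 0.73 with p = 0.0293), again with 10 of 12 arrays on the same side. The slope was 1.85 (standard error 0.41, limma, Benjamini-Hochberg adjusted p = 0.201). The r was 0.63 without YSR arrays 2 and 3. Without OR array 1 and YSR array 1 it was 0.83 and no longer passed (exact permutation p = 0.0694), and the test was also lost on leaving out any of OSR array 1, YR array 2, YSR array 1, YSR array 2 or YSR array 3 (exact permutation p from 0.0509 to 0.0671, r from 0.63 to 0.81).
Values for the old and the young arrays taken apart are given as a description without a test. Mmp9 and Ibsp had r = 0.82 over the 6 old and 0.75 over the 6 young arrays, and Mmp13 and Ibsp 0.67 and 0.87. At the dimmer Mmp9 probe set the values with Ibsp were 0.76 and 0.39. The young arrays include YSR arrays 2 and 3, with Ibsp deviations of -3.65 and 3.26.

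S100a8 followed Mmp9 within groups at r = 0.75 (exact permutation p = 0.0471, rho = 0.57 with p = 0.147). It was lower, at 0.43, without YR array 2 and OSR array 1, the arrays of largest S100a8 deviation. These 2 arrays still entered the group means from which the deviations were taken. Where 1 array was left out, the group means were computed anew. Leaving out YR array 2 alone gave 0.51 (exact permutation p = 0.255), and the test was lost on leaving out any array of OSR, YR or YSR (exact permutation p from 0.0532 to 0.255, r from 0.51 to 0.81). Among the 6 young arrays r was 0.97 and among the 6 old arrays 0.36, a difference that was not tested. In OR the deviations of the brighter probe set ran opposite to those of S100a8, with 0.20, 0.03 and -0.22 for Mmp9 and -0.62, -0.25 and 0.87 for S100a8 in arrays 1 to 3, an opposition that the dimmer probe set, nearly level over these arrays, did not show. The slope of S100a8 on Mmp9 was 0.88 (standard error 0.23, limma, Benjamini-Hochberg adjusted p = 0.392). At the dimmer Mmp9 probe set the within-group r with S100a8 was 0.70 and did not pass (exact permutation p = 0.0640). For Mmp13 and S100a8 the value was 0.56 (exact permutation p = 0.103, rho = 0.53), and without OR array 3 it was 0.77 and passed (exact permutation p = 0.0324).

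The osteoclast markers did not pass with either enzyme within groups. For Mmp9 the within-group r was 0.10 with Acp5 (exact permutation p = 0.614) and -0.22 with Ctsk (p = 0.375), and for Mmp13 -0.066 with Acp5 (p = 0.823) and -0.31 with Ctsk (p = 0.372). Without OR array 3 the value for Mmp13 and Ctsk was -0.54 and passed (exact permutation p = 0.0440). The value for Mmp9 and Acp5 of 0.81 over all arrays thus came with 0.10 within groups. Acp5 and Ctsk followed each other within groups at r = 0.73. The largest deviation of both was in OR array 1 (0.62 and 0.74 on the log2 scale), an array of high Gapdh ratio. Col1a1 gave -0.020 with Mmp9 (exact permutation p = 0.970) and -0.13 with Mmp13 (p = 0.738). These tests do not show that the genes are unrelated, as the exact permutation has few arrays per group to exchange.

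**Figure D2:**
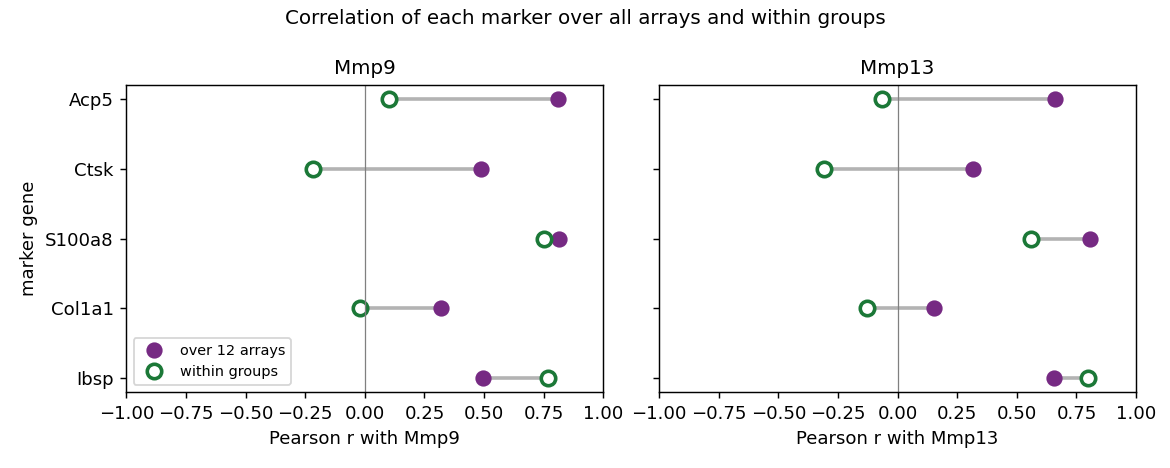
Pearson r of each marker gene with the brighter Mmp9 probe set and with Mmp13, over all 12 arrays (filled) and within groups (open). The values for Acp5 and Ctsk are lower within groups than over all arrays for both enzymes, whereas those for Ibsp are higher.

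**Figure D3:**
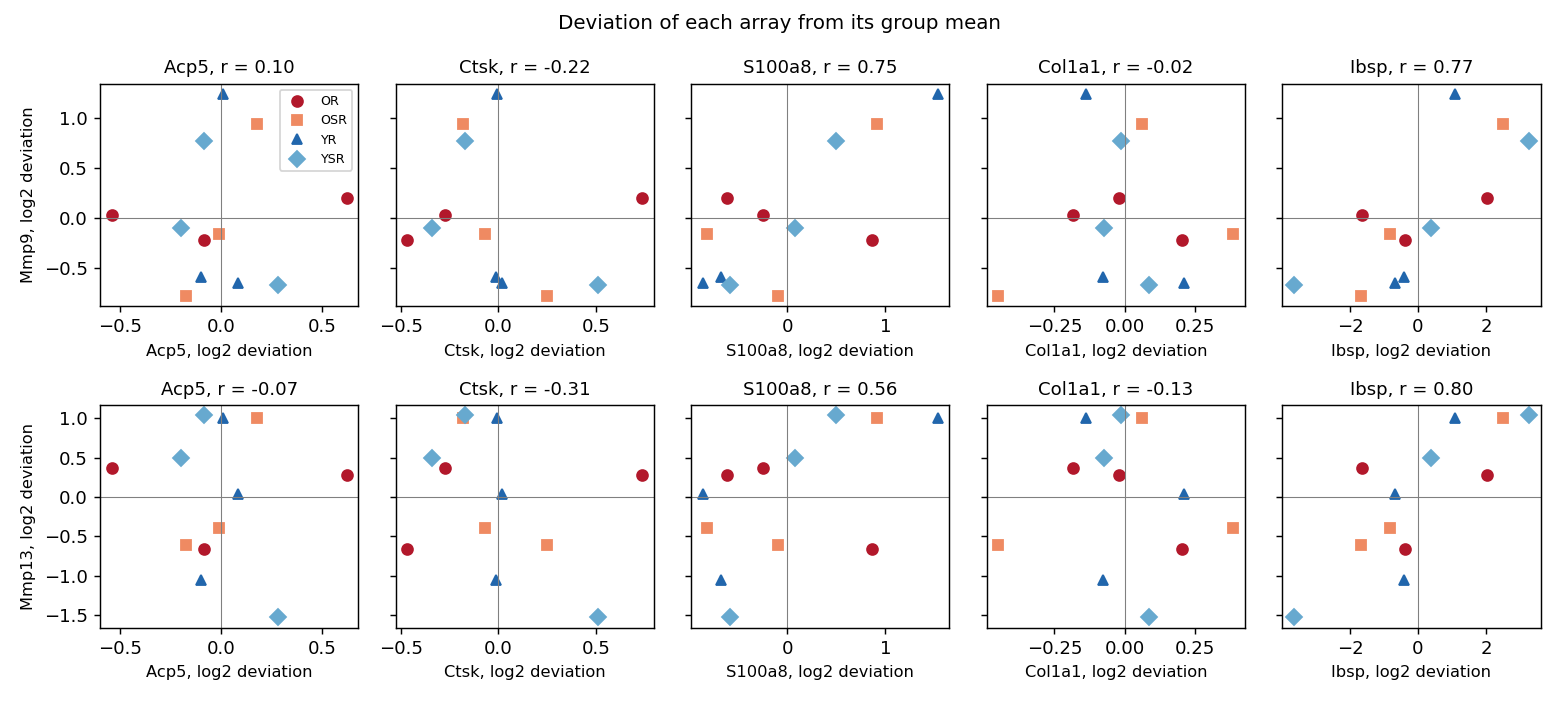
Log2 deviation of each array from its group mean for Mmp9 (brighter probe set, upper row) and Mmp13 (lower row) against the deviation of each marker, with groups OR, OSR, YR and YSR by colour and shape and the within-group r above each panel. Arrays high in Ibsp are high in both enzymes (r = 0.77 and 0.80), and no such order is seen for Acp5, Ctsk or Col1a1.

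The 2 enzymes followed each other. Over all 12 arrays the brighter Mmp9 probe set and Mmp13 had r = 0.93 and within groups 0.84 (exact permutation p = 0.00617, rho = 0.85 with p = 0.00463), and 10 of 12 arrays lay on the same side of their group means. Without YSR array 2 and YR array 1, but with deviations from the means of all 3 arrays of a group, the within-group value was 0.85. The slope of Mmp13 on Mmp9 was 1.06 (standard error 0.21, limma, Benjamini-Hochberg adjusted p = 0.233). The brighter and the dimmer Mmp9 probe set had 0.97 over all arrays and 0.87 within groups (exact permutation p = 0.0139), and the dimmer one and Mmp13 had 0.59 within groups (p = 0.0787). YSR array 2 differed most between these, with deviations of 0.04 at the dimmer Mmp9 probe set and -1.53 at Mmp13.
For no marker did the difference between the enzymes pass within groups. The difference of the within-group r, Mmp9 minus Mmp13, was 0.17 for Acp5, 0.089 for Ctsk, 0.19 for S100a8, 0.11 for Col1a1 and -0.030 for Ibsp. With an exact permutation test that swapped both enzymes within arrays (5 tests), p was 0.191, 0.506, 0.121, 0.501 and 0.747 in the same order, which does not show that the enzymes are alike in this. The difference for S100a8 was 0.24 and passed without OSR array 2 (exact permutation p = 0.0459) or OSR array 3 (0.00977), and those for Acp5 (0.22, exact permutation p = 0.0469) and Col1a1 (0.27, 0.0137) passed without YR array 3.

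Among all 31041 other probe sets, the slope on Mmp9 within groups was called for 0% and that on Mmp13 for 0.00322% (limma, adjusted p under 0.05). Unadjusted p-values under 0.05 were seen for 1199 positive and 711 negative slopes on Mmp9 and for 1229 and 787 on Mmp13. The 1 gene called was Tfrc, the transferrin receptor, through which cells and above all erythroid precursors take up iron. Tfrc had 10587.7, 10946.4 and 5212.3 in OR, 8652.6, 3612.5 and 5243.1 in OSR, 1852.9, 5739.8 and 2514.6 in YR and 6292.5, 1784.8 and 8696.5 in YSR. Its within-group r with Mmp13 was 0.96 and its slope 0.82 (standard error 0.08, limma, Benjamini-Hochberg adjusted p = 0.0128).
The number of calls for Mmp13 depended on the arrays of high Gapdh ratio. Without OR array 1 and YSR array 1 it was 146 probe sets (0.47%), of which 143 had a positive and 3 a negative slope, and with the ratio as a covariate it was 97 (0.312%), of which 93 were also among the 146. Leaving out YSR array 1 alone gave 71, YR array 1 gave 9 and OSR array 3 gave 3, whereas leaving out OR array 3, OSR array 1, YR array 2 or YSR array 3 gave 0. Without YSR array 2 the 2 calls both had a negative slope, so that Tfrc, with its positive slope, was not among them, and without OR array 1, OR array 2, OSR array 2 or YR array 3 there was 1 call. Of the 146, 113 had 1 gene symbol, and 7 genes of the cell type lists were among them at their brightest probe set. These were the erythroid genes Ahsp (a chaperone of alpha-globin, adjusted p = 0.0175), Klf1 (the erythroid transcription factor, 0.0183), Slc4a1 (the anion exchanger of the red cell membrane, 0.0225) and Epb42 (a protein of the red cell membrane skeleton, 0.0360), the megakaryocyte genes Itga2b (integrin alpha IIb, 0.0183) and Treml1 (a receptor of platelet granules, 0.0383) and Itgb3 (integrin beta 3, of platelets and osteoclasts, 0.0458), all with limma and Benjamini-Hochberg adjustment and all with a positive slope. With the ratio as a covariate, which keeps all 12 arrays, 6 of these 7 were called, Itgb3 not being among them. No list gene was called with all 12 arrays and no covariate.

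Erythroid and platelet genes as whole lists stood high beside both enzymes. Over the 14215 genes with a probe set, the median within-group r was 0.0023 with Mmp9 and -0.020 with Mmp13. The 7 measured erythroid genes had a median of 0.72 with Mmp9 and 0.82 with Mmp13, and 6 of 7 were above 0. Ahsp (0.80 with Mmp9, 0.86 with Mmp13), Klf1 (0.77, 0.86), Slc4a1 (0.74, 0.85) and Alas2, which starts heme synthesis in erythroid cells (0.68, 0.77), were high. Hbb, the beta-globin gene and the brightest of the list (mean log2 signal 15.24), was not high (-0.066, -0.40). The 6 platelet and megakaryocyte genes had medians of 0.74 and 0.79 and all 6 were above 0 for both enzymes. Among them were Treml1 (0.90, 0.84), Pf4 (platelet factor 4, 0.87, 0.84) and Itga2b (0.79, 0.88). At an unadjusted p under 0.05, 6 of 7 erythroid and 6 of 6 platelet genes had a positive slope on Mmp9 (3.86% of all probe sets), and 5 and 4 on Mmp13 (3.96%). At the dimmer Mmp9 probe set the medians were lower, 0.53 for erythroid and 0.62 for platelet genes, and 3 of 7 and 5 of 6 had such a slope (3.65% of all probe sets).
The arrays that carried this were those already named. Klf1 had 1682.1, 2109.3 and 1218.3 in OR, 1740.3, 474.2 and 840.6 in OSR, 321.4, 1139.7 and 436.4 in YR and 228.0, 67.1 and 1571.1 in YSR. Itga2b had 1124.2, 2363.7 and 1726.8 in OR, 2664.0, 797.6 and 1440.2 in OSR, 367.4, 2148.3 and 592.8 in YR and 910.1, 192.3 and 1508.2 in YSR. OSR array 1, YR array 2 and YSR array 3 were highest in their groups for both, and YSR array 2 was the lowest of all arrays. The summed signal of the erythroid list was 77126 to 104846 in OR, 61427 to 76697 in OSR, 55884 to 95183 in YR and 49545 to 67413 in YSR, and that of the platelet list 26580 to 35216 in OR, 23284 to 36674 in OSR, 17722 to 38616 in YR and 14095 to 28112 in YSR. Genes of other cells moved with the same arrays. Of the adipocyte list, Adipoq had 0.83 with Mmp9 and 0.77 with Mmp13 and Plin1, a coat protein of lipid droplets, 0.86 and 0.53, while the median over its 7 measured genes was -0.025 and -0.12, and Fabp4 (-0.059, -0.20) and Lpl (-0.41, -0.59), its brightest genes, were at or below 0. The mean log2 signal of this list had a within-group r of 0.77 with Mmp9 and 0.44 with Mmp13. These values of the mean were 0.79 and 0.48 for osteoblast genes with Ibsp, 0.79 and 0.79 for erythroid and 0.78 and 0.73 for platelet genes. Most genes of skeletal muscle lay below 0, with a median over 9 genes of -0.35 with Mmp9, -0.60 with its dimmer probe set and -0.29 with Mmp13. Only Myh1 was above 0 with Mmp9 (0.26). None had a negative slope on the brighter Mmp9 probe set or on Mmp13 at an unadjusted p under 0.05. At the dimmer Mmp9 probe set Myh2, Myh4, Acta1, Ckm, Mb, Tnnt3 and Ttn had such a slope, while Myh1 and Actn3 did not. Of all 31041 probe sets, 842 had such a slope there. The mean log2 signal of the muscle genes deviated by -3.33 in OSR array 1 and by 2.45 in OSR array 2, and by 2.34 in OR array 1 and -2.19 in OR array 2. In OR array 1 the brighter Mmp9 probe set (0.20) and Mmp13 (0.29) were above their group means too. The summed signal was 16597 to 61282 in OR, 10932 to 97194 in OSR, 39017 to 70561 in YR and 28152 to 54774 in YSR for the muscle list, and 19345 to 24610 in OR, 13940 to 20680 in OSR, 19149 to 22884 in YR and 16024 to 29097 in YSR for the adipocyte list. The part of all these cells in the relation of the enzymes to Ibsp was not tested.

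**Figure D4:**
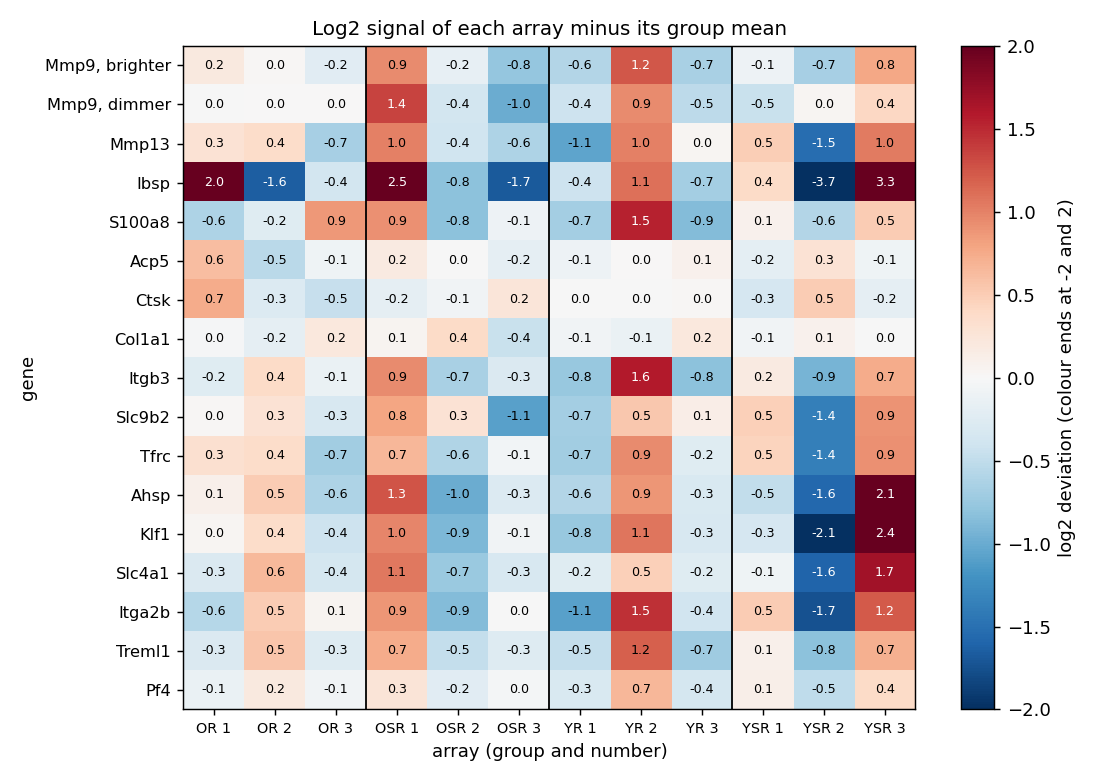
Log2 signal of each array minus its group mean for both Mmp9 probe sets, Mmp13, the 5 markers and genes of the osteoclast, erythroid and platelet lists, with arrays in columns by group and the deviation printed in each cell. OSR array 1, YR array 2 and YSR array 3 are high for Ibsp, S100a8, Tfrc and the erythroid and platelet genes as for the enzymes, and Acp5, Ctsk and Col1a1 do not share the pattern.

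Osteoclast genes divided within groups. The 13 measured genes other than Mmp9 had a median within-group r of -0.034 with Mmp9 and -0.066 with Mmp13, close to the medians over all genes, and 6 and 5 of them were above 0. Their mean log2 signal, in contrast, had a within-group r of 0.59 with Mmp9 and 0.53 with Mmp13. For the neutrophil list these values of the mean were 0.59 and 0.42. Itgb3, the beta chain of the vitronectin receptor of osteoclasts that platelets also carry, was high (0.91 with Mmp9, 0.84 with Mmp13), as was Slc9b2, a sodium/proton exchanger induced during osteoclast formation (0.78, 0.91). Atp6v1c1, a subunit of the proton pump, had 0.57 and 0.51. Calcr, the calcitonin receptor, lay below the median signal of all probe sets and had -0.57 and -0.33, and Ckb, the brain-type creatine kinase, -0.58 and -0.11. Slc9b2 was 767.6, 923.3 and 606.3 in OR, 384.9, 272.7 and 105.4 in OSR, 33.4, 77.6 and 58.2 in YR and 125.3, 34.7 and 167.5 in YSR, with OR above all other arrays as for Mmp9. Among genes with 1 symbol and a mean at or above the median signal it had the highest r with Mmp9 over all 12 arrays (0.96), and its mean passed that limit through the groups where it was high (log2 mean 7.40, against a limit of 7.16). Its slope within groups was 0.84 (standard error 0.23) on Mmp9 and 0.78 (standard error 0.14) on Mmp13 (limma, Benjamini-Hochberg adjusted p = 0.428 and 0.114). The signals that drive osteoclast formation did not pass either, with Tnfsf11 (RANK ligand) at 0.31 with Mmp9 and 0.48 with Mmp13 and Il6 at -0.69 and -0.80. The summed signal of the osteoclast list was 27417 to 38536 in OR, 21615 to 27014 in OSR, 17172 to 22240 in YR and 20922 to 25128 in YSR, and 6 of its 13 genes were higher in OR than in YR at an unadjusted p under 0.05 (4.8% of all probe sets), with none called. Other lists shared this, with 8 of 15 fibroblast, 6 of 9 endothelial, 6 of 8 smooth muscle and 6 of 11 neutrophil genes. The count was 0 of 7 for erythroid, 0 of 6 for platelet and 0 of 12 for macrophage genes.

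Neutrophil genes lay above 0 with Mmp9 for all 11 measured genes (median 0.46) and with Mmp13 for 10 of 11 (median 0.39). At the dimmer Mmp9 probe set all 11 were above 0 as well, and their median was 0.585, against 0.53 for the erythroid list. At an unadjusted p under 0.05, 5 of 11 had a positive slope on Mmp9 (3.86% of all probe sets). The count was 7 at the dimmer probe set (3.65%) and 2 on Mmp13 (3.96%). With Mmp9 the highest were S100a9, a partner of S100a8 (0.77 with Mmp9, 0.57 with Mmp13), Camp (a cathelicidin, 0.73, 0.54) and Np4 (a defensin, 0.68, 0.39). Lcn2, a further granule protein, had 0.46 and 0.22, and the receptors Il1r2 and Cxcr2 had 0.35 and 0.42, and 0.15 and 0.24. Mmp8, the collagenase of neutrophil granules, had 0.42 with Mmp9, 0.63 with its dimmer probe set and 0.028 with Mmp13. The summed signal of this list was 40016 to 110597 in OR, 25905 to 78238 in OSR, 13025 to 58483 in YR and 11200 to 19501 in YSR. The 5 measured genes of B and plasma cells were also all above 0 with both enzymes (medians 0.46 with Mmp9 and 0.27 with Mmp13). Of 10 genes of T and NK cells, 7 were above 0 with Mmp9 and 6 with Mmp13 (medians 0.41 and 0.098).
Osteoblast genes other than Ibsp were mostly dim, with 7 of 10 below the median signal, and had a median of 0.49 with Mmp9 and 0.13 with Mmp13. Pth1r, the receptor of parathyroid hormone, followed (0.69, 0.62), while the bright genes Spp1 (osteopontin, 0.029, -0.33) and Sparc (osteonectin, -0.12, 0.11) did not. The dim genes Alpl (0.65, 0.35), Dlx5 (0.61, 0.52) and Dmp1 (0.60, 0.16) were also high with Mmp9. With Ibsp, 5 of 11 osteoblast genes had a positive slope on Mmp9 at an unadjusted p under 0.05 (3.86% of all probe sets). The count was 4 at the dimmer Mmp9 probe set (3.65%) and 2 on Mmp13 (3.96%). The 15 fibroblast genes had medians of -0.12 and -0.15, with Fap (0.43, 0.55) highest and Pdgfra (-0.63, -0.61) lowest. Of the macrophage genes, 2 of 12 were above 0 with Mmp9 and 3 of 12 with Mmp13, against 50.2% and 48.3% of all genes. Their medians were -0.052 and -0.21. At the dimmer Mmp9 probe set 6 of 12 were above 0, with a median of -0.071. Cd14, the endotoxin co-receptor, had -0.51 with Mmp9 and -0.53 with Mmp13, whereas Cd163 had 0.47 and 0.27. Endothelial genes were above 0 in all 9 cases (medians 0.36 and 0.38), led by Vwf (von Willebrand factor, also of megakaryocytes, 0.81, 0.79). None of these genes was called.

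**Figure D5:**
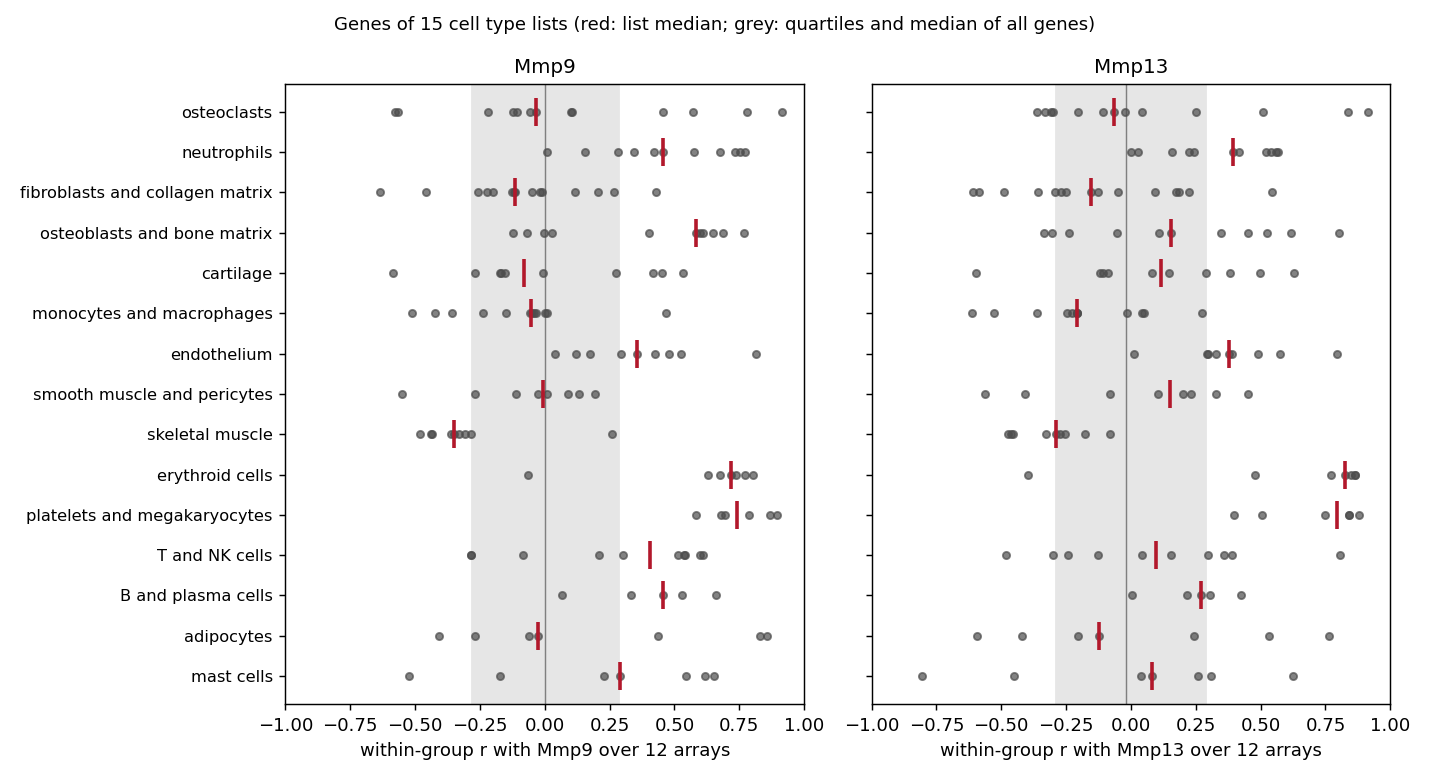
Within-group r over 12 arrays of the measured genes of 15 cell type lists with Mmp9 (left) and Mmp13 (right), one point per gene, with the list median in red and the median and quartiles over 14215 genes in grey. Mmp9 is drawn by its brighter probe set. There and for Mmp13 the medians of the erythroid (0.72, 0.82) and platelet lists (0.74, 0.79) lie farthest to the right. At the dimmer Mmp9 probe set, which is not drawn, the neutrophil median (0.585) was above the erythroid one (0.53).

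Other matrix metalloproteinases did not share the pattern as a family. The 15 measured genes other than the members had a median within-group r of -0.081 with Mmp9 and -0.0082 with Mmp13, 7 were above 0 for each, and none was called. Mmp3 (stromelysin 1), a dim gene here, was the highest (0.72, 0.70). It had 129.3, 115.6 and 131.9 in OR, 104.9, 59.1 and 30.2 in OSR, 61.7, 84.4 and 56.3 in YR and 127.9, 50.6 and 88.1 in YSR, so that OR and YSR overlapped. Mmp2, the other gelatinase, had -0.33 with Mmp9 and -0.0082 with Mmp13, with 3007.2, 2325.6 and 3394.0 in OR, 2455.5, 2466.2 and 1945.9 in OSR, 2193.6, 1396.0 and 3511.9 in YR and 3363.0, 2175.6 and 2733.2 in YSR, and all groups overlapped. Mmp12 (macrophage elastase) had 0.38 and 0.32, and Mmp14, a membrane-type enzyme that activates other members, 0.22 and 0.13.
Of the 6 measured inhibitors only Timp3, a matrix-bound inhibitor, was above 0 (0.84 with Mmp9, 0.61 with Mmp13). Timp3 had 1064.2, 1222.4 and 1244.0 in OR, 1626.3, 793.6 and 479.0 in OSR, 346.9, 635.2 and 383.7 in YR and 311.8, 360.0 and 458.6 in YSR. Its slope on Mmp9 was 0.56 (standard error 0.12, limma, Benjamini-Hochberg adjusted p = 0.261). Timp1, the inhibitor that binds pro-MMP-9, had -0.43 with each enzyme, and Timp2, Timp4, Reck and A2m lay between -0.66 and -0.10. Among activators and partners, Plau (urokinase) had -0.52 with each enzyme, Cd44, a surface docking protein of MMP-9, -0.56 and -0.60, and Bsg (basigin, an inducer of MMPs) -0.57 and -0.85. Of 14 measured transcription factors of the 2 genes, Ets1 (0.57, 0.42) and Jund (0.26, 0.57) were highest and the AP-1 gene Fosb (-0.58, -0.82) lowest. None of these genes was called.

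The genes most like Mmp9 over all 12 arrays, among those with 1 symbol and a mean at or above the median signal, were Slc9b2 (r = 0.96), Myl9 (0.94), Cdo1 (0.94), Dnase1l3 (0.94), Arsb (0.93), Lef1 (0.93), Thrsp (0.93), Spns2 (0.93), Adipoq (0.92) and Acss1 (0.92). For Mmp13 they were Myl9 (0.98), Fryl (0.97), Lgalsl (0.97), Ptbp3 (0.94), Slc9b2 (0.94), Cdk11b (0.94), Gucy1b1 (0.93), Arsb (0.92), Itgb3 (0.92) and Atp8a1 (0.92). Slc9b2, Myl9 (a regulatory light chain of myosin) and Arsb (a lysosomal sulfatase) were on both lists. These values over all arrays contain the known differences between the groups and are a description without a test. Adipoq, which encodes the adipocyte hormone adiponectin, was 398.1, 720.2 and 1120.4 in OR, 938.3, 277.4 and 111.3 in OSR, 39.3, 142.7 and 36.9 in YR and 102.6, 21.1 and 125.9 in YSR. Its mean passed the signal limit through OR and OSR (log2 mean 7.40, against a limit of 7.16), as YR and YSR had means of 5.89 and 6.02.
Within groups the most similar genes were Zmym1 (0.96), Tal1 (0.94), Irag1 (0.94), Nlk (0.93), Smim5 (0.93), Tfdp2 (0.93), Thrap3 (0.93), Myl9 (0.93), Nin (0.92) and Slc43a1 (0.92) for Mmp9. Tal1, a transcription factor of erythroid and megakaryocytic cells, had the smallest adjusted p among these, with a slope of 1.29 (standard error 0.15, limma, Benjamini-Hochberg adjusted p = 0.0619). For Mmp13 they were Tfrc (0.96), Cdca4 (0.96), Myl9 (0.95), Lgalsl (0.94), Patz1 (0.94), Fryl (0.94), Zfp180 (0.94), Srsf2 (0.93), Nup62 (0.93) and Mier1 (0.93). Myl9 was on both lists. It had 3804.7, 4601.5 and 3091.4 in OR, 3264.1, 2281.9 and 1860.2 in OSR, 1248.9, 2638.4 and 1557.2 in YR and 1636.2, 1100.9 and 2274.7 in YSR, with slopes of 0.54 (standard error 0.08) on Mmp9 and 0.44 (standard error 0.06) on Mmp13 (limma, Benjamini-Hochberg adjusted p = 0.133 and 0.0913). Apart from Tfrc with Mmp13, none of the genes listed here as most similar was called.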

How the data were processed

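RNA pools of 3 animals were measured on 12 Affymetrix rat arrays of 1 colour, 3 per group. The deposited values are linear signal intensities, scaled by the authors to a common trimmed mean of 500.2 per array, and the processing notes name GCOS 1.2. The study's own PLIER summaries were not used here. The number of arrays limits the precision, and p-values measure the spread between pools.

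Signals under 1 were set to 1 and taken to log2. Of 31099 probe sets, 57 controls were left out. Symbols came from the platform annotation (20832 probe sets with 1 symbol, 436 with several, 9831 with none), and 20764 were matched to the rat gene list. Slopes on each enzyme were fitted with the group as a factor, and group differences (OR minus YR, OR minus OSR) on 4 group means, with limma 3.58.1 (intensity trend, Benjamini-Hochberg over all probe sets) in R 4.3.3. The study compared pairs of groups by analysis of variance. Python 3.11.15, pandas 2.3.3, numpy 2.4.6, scipy 1.17.1 and matplotlib 3.10.9 gave the exact permutation tests and plots. The fits were tested on simulated data.

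The members and gene lists were chosen with earlier results of these data known, so that no p was adjusted over a list alone. Named were the members, the 5 markers, MMPs and TIMPs, per list up to 4 genes by signal, 4 by highest and 2 by lowest within-group r, the 10 most similar genes and the calls. Alternatives were a pseudocount of 16, quantile normalization, only probe sets at or above the median, no intensity trend, the Gapdh ratio (2 arrays left out or a covariate), a replicate block, Spearman's rho, other probe sets of the markers and of Mmp9, only the 6 arrays of a pair, and leaving out each array. No 2 arrays held identical values. Promoter sequences are from RefSeq (GRCr8).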

Additional observations from a re-analysis of the deposited data

How the results depend on the processing

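In data simulated for the Mmp9 slopes, 14 of 50 slopes of 0.5, 40 of 50 of 1 and all 50 of 1.5 were recovered, so that shallow slopes were often missed at this size. There were also 13 false calls. The simulated noise was independent between probe sets, and slopes were given only to those at or above the median signal. Measured genes were not independent of each other, so that these shares may not hold for them. The measured Ibsp slope of 2.25 on Mmp9 was not called. Dim genes such as Ibsp in YSR array 2 lie near the array background. Of the 25 correlations and differences, those of Mmp9 with Ibsp kept their side of the threshold with every array left out in turn (r from 0.70 to 0.88). They did not at the dimmer Mmp9 probe set (0.56, exact permutation p = 0.0563). There S100a8 no longer passed either (0.70, exact permutation p = 0.0640), and Col1a1 turned to 0.13. Mmp9 with S100a8 no longer passed with the Gapdh ratio as a covariate (0.75, exact permutation p = 0.0540) or with Spearman's rho (0.57). Mmp13 with Ibsp no longer passed with the ratio (0.79, exact permutation p = 0.0532) or without OR array 1 and YSR array 1 (0.83). With quantile normalization the values for Col1a1 turned to 0.057 with Mmp9, 0.075 with Mmp13 and -0.017 for the difference. The difference for Ibsp turned to 0.026 with a pseudocount of 16 and 0.070 with rho, and that for Ctsk to -0.014 with rho. The cause was not tested.
Arrays of the same replicate number were not paired (median correlation of deviations 0.019 over 18 same-numbered pairs, from -0.41 to 0.40, against 0.020 over 36 others). With the replicate block Mmp9 with S100a8 gave 0.80 (exact permutation p = 0.0517), the difference for S100a8 0.22 (exact permutation p = 0.0479) and that for Ibsp 0.088, the block gave 2 calls for Mmp9 and 0 for Mmp13, and no other call changed.
Calls by limma for Mmp9 were 2 without OR array 1 and YSR array 1 and 1 with the ratio as a covariate. For Mmp13 they were 146, 97 and, without an intensity trend, 0. OR minus YR gave 0 without trend, 0 without the 2 arrays, 3 with the ratio and 14 with only the 6 arrays of the pair, against 1.
Leaving out each array gave, for Mmp9 within groups, -0.022 to 0.27 with Acp5, 0.51 to 0.88 with S100a8 and -0.60 to 0.19 with Col1a1. For Mmp13 it gave -0.28 to 0.25 with Acp5, -0.65 to 0.081 with Ctsk, 0.39 to 0.77 with S100a8 and 0.63 to 0.91 with Ibsp. The differences ranged from 0.020 to 0.31 (Acp5), -0.11 to 0.22 (Ctsk), 0.091 to 0.24 (S100a8), -0.067 to 0.27 (Col1a1) and -0.092 to 0.13 (Ibsp). Calls ranged from 0 to 8 for Mmp9 (8 without OSR array 3), from 0 to 71 for Mmp13, from 0 to 4 in OR minus YR and from 0 to 1 in OR minus OSR.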
